A study of Mus musculus with 6 samples.

Results

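The genes described here encode the interleukin 1 family cytokines and the inflammasome that processes them. They were chosen by name from the gene table, with no use of their values: the cytokines Il1a, Il1b and Il18, the antagonists Il1rn and Il18bp, the sensor Nlrp3, the adaptor Pycard, the proteases Casp1 and Casp4 and the pore-former Gsdmd. All 10 were found among the 18429 genes measured. Single-cell RNA-seq of mouse bone marrow-derived macrophages by MARS-seq, a plate method that tags each captured mRNA 3′ end with a unique molecular identifier (UMI), addressed how loss of cohesin alters inducible gene expression. Cohesin is a ring-shaped complex that extrudes DNA loops, and Rad21 encodes one of its subunits.

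There were 6 samples: wild-type and Rad21-/- cells that were untreated or had received 10 ng/ml LPS (bacterial lipopolysaccharide) for 2 h or 8 h. Every sample was creERT2/creERT2 at the rosa26 locus, so wild-type cells carried the recombinase too. All were grown with L929-conditioned medium, were given 200 nM 4-hydroxy-tamoxifen after 96 h, and were used on day 7. Rad21-/- cells came from mice with loxP-flanked Rad21 alleles, in which the gene is deleted in culture and not in the animal. How many mice or cultures stood behind a sample was not given in the sources used here. Each condition is therefore 1 sample with no replicate, no test between samples was possible, and all intervals (95%) cover counting error only.

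Of 1362 wells, 1345 with at most 25000 UMIs were kept, 181 to 267 per sample, with 1197415 to 1734640 UMIs in each sample and a median of 5544 to 7043 UMIs per cell. The other 17 wells held 45.5% of all UMIs counted for wild-type cells at 2 h but 1.71% to 17% elsewhere. Rad21 was found in 18.2% to 25.6% of wild-type cells and in 2.62% to 5.43% of Rad21-/- cells. All 7 macrophage markers were present, with summed levels of 5281 to 8877 CPM (summed UMIs over the UMI total of the sample, times 1000000). Lyz2 was the largest part of this, at 2594 to 6487 CPM, while Mertk was found in 4.05% to 11.8% of cells. Listed B cell, T and NK cell, dendritic cell, mast cell and fibroblast genes with rows summed to 4.25 to 32.6 CPM per list. No listed erythroid gene had a row. Of 9 neutrophil genes listed, 3 had rows, and their summed level was 61.1 CPM in wild-type and 43.2 CPM in Rad21-/- cells at 8 h against 8.30 to 12.5 CPM in the other samples. Most of it was Csf3r, while S100a8 and the granule gene Camp stood at 0 to 11 CPM. The part of neutrophil transcripts in the 8 h results was not tested. Libraries were made in 24 pools, each holding a single time point, so time and pool cannot be told apart, whereas 23 pools held both genotypes.

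IL-1β and IL-18 are made as inactive precursors without a secretion signal. LPS induces the IL-1β precursor and the sensor NLRP3 (priming). A further stimulus then assembles NLRP3, the adaptor ASC (encoded by Pycard) and caspase-1 into the inflammasome, in which caspase-1 cleaves the precursors and gasdermin D, whose fragments form the pores through which the cytokines leave. Mouse caspase-11, the product of Casp4, binds LPS in the cytosol and also cleaves gasdermin D. The IL-1 receptor antagonist (Il1rn) occupies the IL-1 receptor without signalling, and IL-18 binding protein (Il18bp) captures IL-18.

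The promoters of 5 members are shown because these genes cover the strongest and the earliest responses described below. Each is the 250 bases upstream of the farthest upstream start in the RefSeq promoter table (build GRCm38.p6), read 5′ to 3′ on the gene's strand. The RefSeq gene spans of Il1a and Il1b begin further upstream, inside their windows. Capitals mark matches, on either strand, to TATAAA, to the AP-1 element TGANTCA or to the NF-κB consensus. These motifs were chosen after the windows had been seen.

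Il1b, chr2:129371140-129371389 (minus strand): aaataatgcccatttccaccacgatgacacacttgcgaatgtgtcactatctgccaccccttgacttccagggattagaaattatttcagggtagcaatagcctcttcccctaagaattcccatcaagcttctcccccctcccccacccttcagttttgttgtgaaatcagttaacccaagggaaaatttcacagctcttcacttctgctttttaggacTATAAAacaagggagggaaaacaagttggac
Il1a, chr2:129309973-129310222 (minus strand): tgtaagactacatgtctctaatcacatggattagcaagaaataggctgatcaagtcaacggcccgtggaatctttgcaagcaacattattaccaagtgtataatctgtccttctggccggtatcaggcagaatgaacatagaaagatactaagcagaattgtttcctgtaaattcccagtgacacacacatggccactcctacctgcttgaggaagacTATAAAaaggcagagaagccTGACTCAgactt
Il1rn, chr2:24336610-24336859 (plus strand): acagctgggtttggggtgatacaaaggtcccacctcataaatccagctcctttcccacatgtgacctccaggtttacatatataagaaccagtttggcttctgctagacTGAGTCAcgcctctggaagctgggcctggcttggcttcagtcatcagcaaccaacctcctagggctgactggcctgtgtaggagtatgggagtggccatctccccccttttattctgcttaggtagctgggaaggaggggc
Nlrp3, chr11:59541319-59541568 (plus strand): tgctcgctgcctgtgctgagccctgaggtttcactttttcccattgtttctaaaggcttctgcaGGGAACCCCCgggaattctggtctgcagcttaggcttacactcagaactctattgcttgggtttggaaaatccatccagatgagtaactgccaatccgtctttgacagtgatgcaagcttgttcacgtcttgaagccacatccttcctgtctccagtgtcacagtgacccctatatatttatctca
Casp4, chr9:5308599-5308848 (plus strand): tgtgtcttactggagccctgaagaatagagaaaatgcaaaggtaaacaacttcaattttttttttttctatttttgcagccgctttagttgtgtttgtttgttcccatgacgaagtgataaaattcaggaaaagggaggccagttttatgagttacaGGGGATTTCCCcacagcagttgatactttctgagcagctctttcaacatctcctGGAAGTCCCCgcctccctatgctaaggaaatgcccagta

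The cytokine promoters of Il1b and Il1a both held TATAAA, 31 and 32 bases before the start, a motif found anywhere in 12.4% of 32817 promoter windows of this length. Il1a and Il1rn held an AP-1 element, 12 and 141 bases before the start (6.75% of windows). Nlrp3 held the NF-κB consensus in the upstream part of its window, and Casp4 held it in overlapping matches 92 and 93 bases before the start and again at 39 bases (7.25% of windows). Il1rn and Nlrp3 had further windows at later starts, not shown, which held no match to any of these motifs. The window of a later Casp4 start overlapped the one shown and held the same matches. The interferon-type element, GAAA repeated after any 2 bases and present in 2.97% of windows, was in none of the windows of the 9 members with an entry, and the table had none for Gsdmd. In the genome (GRCm38.p6) Il1a (chr2:129299609-129310186) and Il1b (chr2:129364569-129371164) were neighbours, Il1rn lay far away on the same chromosome (chr2:24336860-24351491), and Casp1 (chr9:5298517-5307281) and Casp4 (chr9:5308849-5336791) lay side by side.

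**Figure D1:**
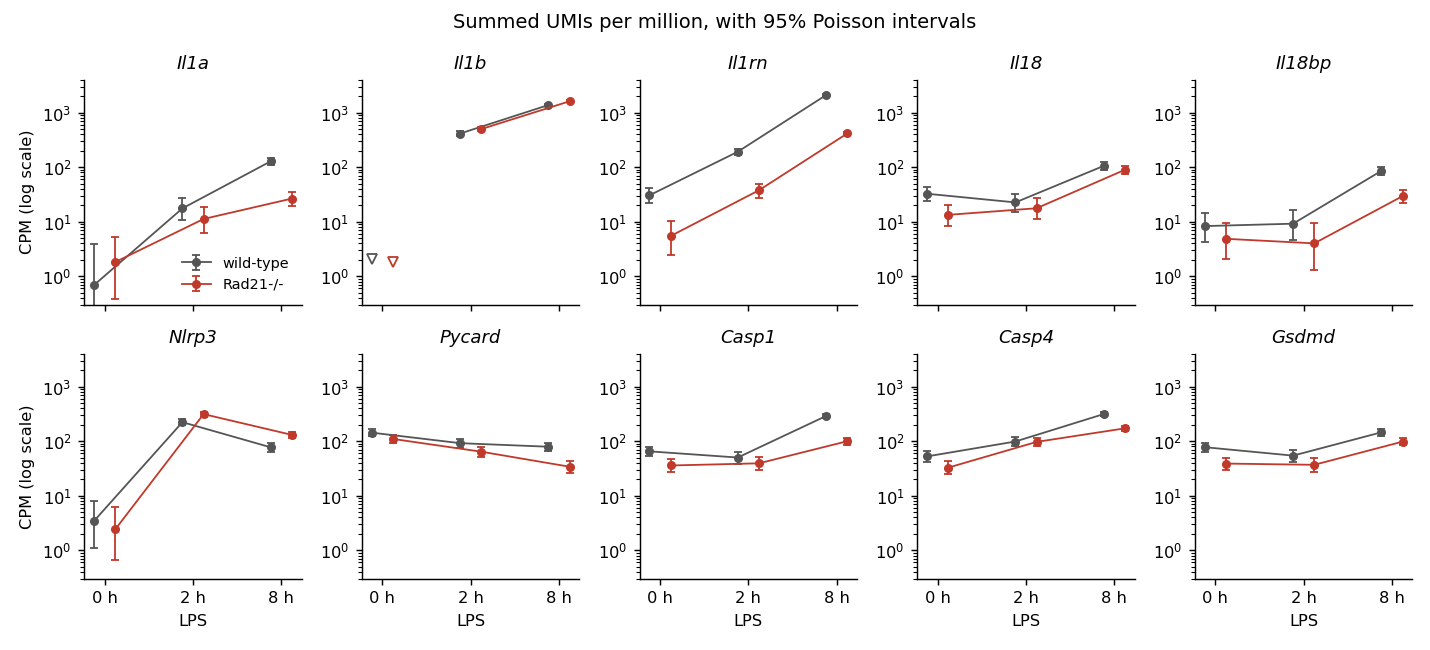
Level of each gene by time after LPS: the y axis is CPM (log scale), the x axis the LPS time, grey wild-type and red Rad21-/- samples, bars 95% Poisson intervals. Open triangles for Il1b mark the level that 3 UMIs would give, since no UMI was found, and the lower end of the untreated wild-type Il1a bar lies below the axis. Il1rn stood lower in Rad21-/- cells at all 3 times while the Il1b points lay close together.

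Il1b, the main inflammatory cytokine of the family, went from undetected to present in nearly all cells in both genotypes. No UMI was counted in 238 wild-type and 267 Rad21-/- untreated cells, and a floor of 3 counts allows levels of up to 2.08 and 1.82 CPM and up to 1.26% and 1.12% of cells with a UMI. This limits cells with a UMI and not cells that express the gene. Wild-type cells held 413 CPM (377 to 451) at 2 h and 1375 CPM (1318 to 1435) at 8 h. Rad21-/- cells held 498 CPM (460 to 539) at 2 h and 1611 CPM (1552 to 1672) at 8 h. The order of the 4 treated samples was thus Rad21-/- 8 h, wild-type 8 h, Rad21-/- 2 h and wild-type 2 h, with no overlap of their Poisson intervals. Set against a floor of 3 UMIs per untreated sample, Il1b was at least 199-fold higher at 2 h and at least 663-fold higher at 8 h in wild-type cells. The same bounds in Rad21-/- cells were 274-fold and 885-fold. From 2 h to 8 h the level was 3.33-fold higher (3.02 to 3.68) in wild-type and 3.23-fold higher (2.96 to 3.53) in Rad21-/- cells, so the intervals of the later increase overlapped.

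The share of cells with an Il1b UMI was 72.9% in wild-type and 75% in Rad21-/- cells at 2 h, and 92.5% and 95.9% at 8 h, with overlapping intervals at both times. Cells that held any carried 3.74 and 4.51 UMIs at 2 h and 9.15 and 13.1 UMIs at 8 h. These counts are not scaled for depth, and the median at 8 h was 5780 UMIs per wild-type and 7043 per Rad21-/- cell. Scaled to CPM, the mean among positive cells at 8 h was 1436 and 1732. The Rad21-/- level over the wild-type level was 1.21 (1.07 to 1.36) at 2 h and 1.17 (1.11 to 1.24) at 8 h. The excess was small and depended on scaling: with library sizes scaled by TMM, which sets the bulk of genes equal between samples, the ratio at 8 h was 1.02. Il1bos, an annotated gene overlapping the 5′ part of Il1b, had 11 UMIs at most in any sample, against 2140 or more for Il1b at 8 h.

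Il1a encodes IL-1α, which acts on the same receptor and needs no inflammasome for activity. Its level in wild-type cells was 0.692 CPM (1 UMI) untreated, 17.5 CPM at 2 h and 128 CPM (111 to 146.9) at 8 h. In Rad21-/- cells it was 1.82 CPM (3 UMIs), 11.2 CPM and 26.5 CPM (19.4 to 35.4). The 8 h wild-type sample stood above all others. The wild-type 2 h sample overlapped both the Rad21-/- 8 h and the Rad21-/- 2 h sample. These Rad21-/- samples were apart, with the 8 h level 2.36-fold (1.28 to 4.66) the 2 h level. Against untreated cells the 8 h level was 184.8-fold higher (32.8 to 7337) in wild-type cells and 14.6-fold higher (4.68 to 73.2) in Rad21-/- cells. These ratios rest on very few untreated UMIs. Leaving out the pool with the only untreated wild-type UMI left 0, which was set to the floor of 3 UMIs. The wild-type ratio was then a bound, at least 48.3 at 8 h and at least 6.63 at 2 h, where the full ratio was 25.3. Leaving out another untreated pool brought the Rad21-/- ratio at 8 h to 38.6.

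Unlike Il1b, whose Rad21-/- level at 8 h was within 1.5-fold of wild-type, Il1a was more than 2-fold lower in Rad21-/- cells at 8 h. At that time 31.6% (25.9 to 37.7) of wild-type and 13.5% (9.31 to 18.7) of Rad21-/- cells carried a UMI, and the Rad21-/- level was 0.207 (0.147 to 0.287) of the wild-type level. At 2 h the shares were 9.94% and 5.43%, and the ratio of 0.639 (0.301 to 1.32) left the direction undetermined at this depth. Gm14023, a gene that overlaps Il1a, had 35 UMIs in wild-type and 6 UMIs in Rad21-/- cells at 8 h. Since the use of strand in counting was not stated, reads of these overlapping genes may not be fully separable.

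Il1rn, the natural inhibitor of both IL-1 cytokines, had the lowest Rad21-/- to wild-type ratio of the members at all 3 times, although at each time its interval overlapped that of at least 1 other member (Il18bp at 2 h, Il1a at 8 h). Wild-type cells held 30.4 CPM (22.1 to 40.9) untreated, 191 CPM (167 to 218) at 2 h and 2089.9 CPM (2019 to 2163) at 8 h. Rad21-/- cells held 5.46 CPM (2.50 to 10.4), 37.6 CPM (27.7 to 50.1) and 414 CPM (384 to 445). The untreated wild-type and 2 h Rad21-/- samples overlapped, and all other neighbours in the order were apart. The Rad21-/- level was 0.179 (0.077 to 0.372), 0.197 (0.141 to 0.270) and 0.198 (0.182 to 0.215) of the wild-type level in turn. The factors over untreated cells were alike: the 2 h level was 6.28-fold (4.53 to 8.88) and 6.89-fold (3.34 to 16.0) the untreated level in wild-type and Rad21-/- cells, and the 8 h level 68.6-fold (51.0 to 94.7) and 75.8-fold (39.7 to 166). The intervals of these factors overlapped, so the Rad21-/- cells started lower and remained about as far below.

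The way the Il1rn deficit was made up changed with time. Untreated, 13.9% of wild-type and 3.0% of Rad21-/- cells had an Il1rn UMI, and at 2 h 49.7% and 21.2% had one. At 8 h nearly all cells did, 99.2% and 89.2%, but a positive wild-type cell carried 13.0 UMIs and a positive Rad21-/- cell 3.63. Splitting the log2 difference in mean CPM per cell into a part from the share of positive cells and a part from the mean among positive cells gave -2.21 and -0.44 untreated, -1.23 and -0.73 at 2 h, and -0.15 and -2.14 at 8 h. A share that nears 100% has little room to differ, and a positive cell at low depth often has a single UMI, so the split depends on how high the level is.

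**Figure D2:**
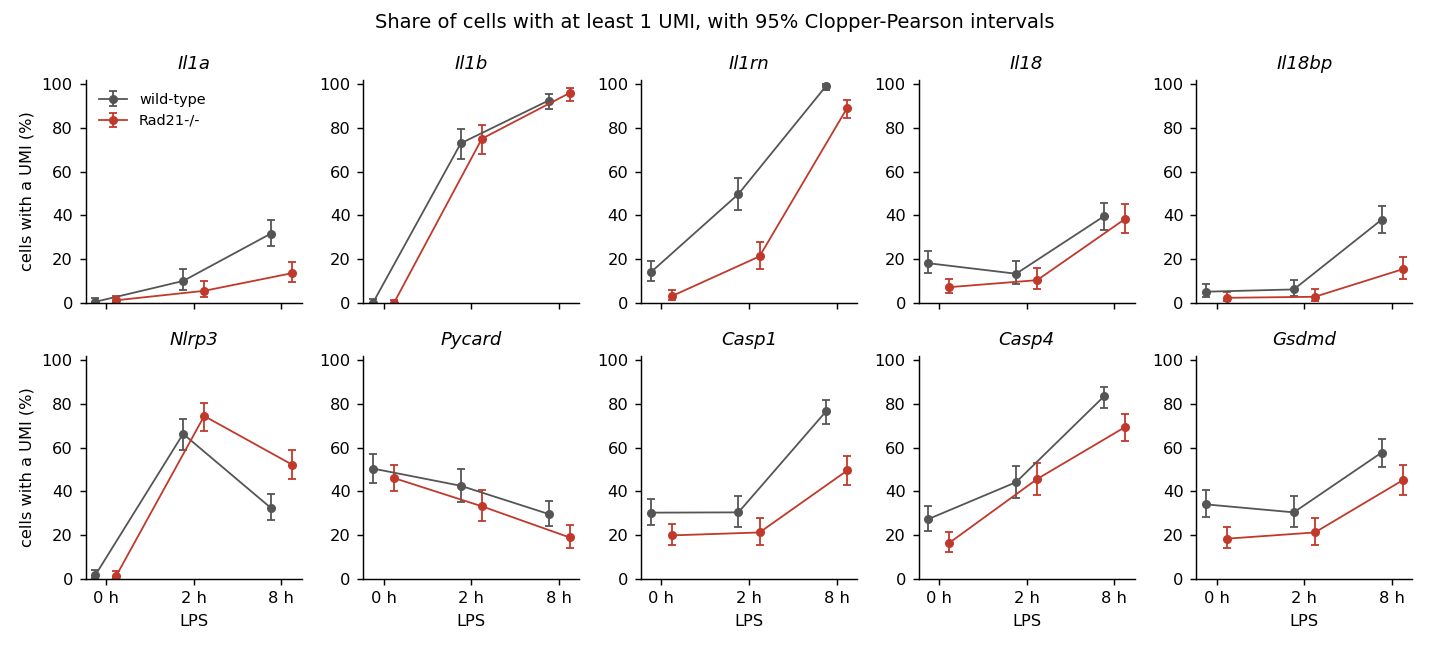
Share of cells with at least 1 UMI of each gene: the y axis is the percentage of cells, the x axis the LPS time, grey wild-type and red Rad21-/- samples, bars 95% Clopper-Pearson intervals. Il1b shares lay together in the genotypes, from 72.9% and 75% at 2 h to 92.5% and 95.9% at 8 h, while those of Casp1 at 8 h lay apart, at 76.7% and 49.5%.

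In wild-type cells Il18 and its binding protein responded later and less than the IL-1 genes. In Rad21-/- cells this held beside Il1b and Il1rn, but the intervals of their 8 h increases overlapped that of Il1a. Il18 stood at 32.5, 22.5 and 105.4 CPM in wild-type cells and at 13.4, 17.6 and 89.4 CPM in Rad21-/- cells (untreated, 2 h and 8 h). Neither genotype differed at 2 h from untreated beyond counting error, and at 8 h Il18 was 3.24-fold (2.33 to 4.58) and 6.69-fold (4.27 to 11) the untreated level. The genotypes differed beyond counting error only when untreated, where the Rad21-/- level was 0.411 (0.236 to 0.695) of wild-type. That ratio was 0.61 after each cell had been thinned to 3800 UMIs. At 8 h, 39.5% of wild-type and 38.3% of Rad21-/- cells had an Il18 UMI, and the level ratio was 0.848 (0.676 to 1.06).

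Il18bp, the secreted trap for IL-18, stood at 8.30, 9.19 and 85.5 CPM in wild-type cells and at 4.85, 4.01 and 29.4 CPM in Rad21-/- cells. The first 2 times could not be told apart in either genotype, and the increase at 8 h was 10.3-fold (5.70 to 20.4) in wild-type and 6.06-fold (2.85 to 14.8) in Rad21-/- cells over untreated. The Rad21-/- increase moved between 3.95-fold and 9.5-fold with 1 pool left out. At 8 h the binding protein was found in 37.9% of wild-type and 15.3% of Rad21-/- cells, and the Rad21-/- level was 0.344 (0.244 to 0.478) of wild-type. Both secreted inhibitors of the family were thus lower in Rad21-/- cells at 8 h, as was the cytokine Il1a, whereas the cytokines Il1b and Il18 were within 1.5-fold of wild-type.

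Nlrp3, the sensor, peaked at 2 h and was the only member to do so in either genotype. Wild-type cells held 3.46 CPM (5 UMIs) untreated, 223 CPM (197 to 251) at 2 h and 77.1 CPM (63.9 to 92.2) at 8 h. Rad21-/- cells held 2.43 CPM (4 UMIs), 313 CPM (283 to 346) and 130.3 CPM (113.9 to 148.4). The 2 h level was 64.5-fold (27.3 to 200) the untreated level in wild-type and 129.03-fold (49.99 to 476) in Rad21-/- cells, both resting on few untreated UMIs. Without 1 untreated pool they were 253-fold in wild-type cells and, without another, 212-fold in Rad21-/- cells. At 8 h the level stood at 0.346 (0.276 to 0.431) of its 2 h value in wild-type and 0.416 (0.352 to 0.491) in Rad21-/- cells. The Rad21-/- level was above wild-type at both times, by 1.40-fold (1.20 to 1.65) at 2 h and 1.69-fold (1.35 to 2.13) at 8 h. The size of this excess depended on processing. Under the alternatives listed below the lowest ratios were 1.15 at 2 h, which is under its counting interval, and 1.38 at 8 h. At 8 h 52.3% of Rad21-/- cells (45.5 to 59.0) and 32.4% of wild-type cells (26.7 to 38.6) had an Nlrp3 UMI, and with each cell thinned to 3800 UMIs 36.8% and 19.6% did.

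Pycard, the adaptor ASC that joins sensor to caspase, was the only member below its untreated level at 8 h. It stood at 143, 91.9 and 79.0 CPM in wild-type cells and at 110, 64.1 and 34 CPM in Rad21-/- cells. Relative to untreated cells the 8 h level was 0.552 (0.438 to 0.693) in wild-type and 0.310 (0.227 to 0.418) in Rad21-/- cells. The median of all genes was itself 0.28 lower on the log2 scale at 8 h in wild-type cells, and TMM scaling, which removes that shift, brought the wild-type Pycard ratio to 0.67. The Rad21-/- level was 0.767 (0.625 to 0.941), 0.698 (0.516 to 0.939) and 0.430 (0.310 to 0.592) of wild-type in the order of time. Without 1 pool the last of these was 0.513, above the 2-fold limit used below.

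The proteases were higher at 8 h, and Casp4 already at 2 h. Casp1, which matures IL-1β and IL-18, stood at 65, 50.1 and 289 CPM in wild-type cells and at 35.8, 39.3 and 99.7 CPM in Rad21-/- cells. The untreated and 2 h samples overlapped within each genotype, and the 8 h level was 4.45-fold (3.55 to 5.61) the untreated level in wild-type and 2.79-fold (2.06 to 3.81) in Rad21-/- cells. Those intervals overlapped. At 8 h Casp1 was found in 76.7% of wild-type (71.0 to 81.7) and 49.5% of Rad21-/- cells (42.8 to 56.3), and the Rad21-/- level was 0.345 (0.288 to 0.412) of wild-type. Before stimulation it was 0.551 (0.391 to 0.770), and at 2 h 0.783 (0.526 to 1.16).

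Casp4, the cytosolic LPS receptor protease, stood at 52.6, 98.5 and 314 CPM in wild-type and at 32.8, 96.9 and 171.8 CPM in Rad21-/- cells. It was already 1.87-fold (1.39 to 2.53) and 2.96-fold (2.13 to 4.16) the untreated level at 2 h, and 5.96-fold (4.68 to 7.70) and 5.24-fold (3.91 to 7.14) at 8 h. The genotypes were level at 2 h, with a ratio of 0.984 (0.757 to 1.28), and the Rad21-/- sample was lower at 8 h, at 0.548 (0.473 to 0.634) of wild-type. Gsdmd, whose product forms the pore, stood at 77.5, 54.3 and 145.2 CPM in wild-type and at 38.8, 36.8 and 98 CPM in Rad21-/- cells. Its 8 h level was 1.87-fold (1.49 to 2.37) and 2.52-fold (1.88 to 3.42) the untreated level, and the Rad21-/- level was 0.501 (0.363 to 0.687), 0.679 (0.455 to 1.01) and 0.675 (0.550 to 0.827) of wild-type in the order of time.

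The 10 genes were then counted by a fixed rule of size, at least 2-fold apart in CPM with at least 20 UMIs over both samples, and set beside the share of all genes past the same rule. In wild-type cells at 2 h, 4 of 10 members (Il1a, Il1b, Il1rn and Nlrp3) were at least 2-fold higher than untreated, against 4.2% of 12846 genes, and none was lower (6.41% of genes). At 8 h 8 members were higher (6.84% of 13136 genes) and none was lower (19.2%), the remaining members being Pycard and Gsdmd. With TMM scaling Casp4 at 2 h (2.02-fold) and Gsdmd at 8 h (2.29-fold) also passed, which made these counts 5 and 9. From 2 h to 8 h 8 were higher (7.08%) and Nlrp3 was lower (13.1%). In Rad21-/- cells 8 members had enough UMIs at 2 h, of which Il1b, Il1rn, Nlrp3 and Casp4 were higher (4.43%) and none was lower (4.67%). At 8 h 9 members were higher than untreated (7.19%) and Pycard was lower (7.95%), and from 2 h to 8 h 7 were higher (6.71%) and Nlrp3 was lower (6.35%). Of these, Il1a (2.36-fold) was no longer 2-fold higher when any of 4 pools was left out, with a lowest ratio of 1.92. The median log2 ratio of the members at 8 h over untreated was 2.97 in wild-type and 2.67 in Rad21-/- cells, where the medians of all genes were -0.28 and -0.03.

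Between genotypes no member was at least 2-fold higher in Rad21-/- cells at any time, against 2.61% of genes untreated, 4.29% at 2 h and 10.3% at 8 h. Lower were Il1rn and Il18 of 7 members with enough UMIs when untreated (5.53% of genes), Il1rn of 9 at 2 h (6.18%), and Il1a, Il1rn, Il18bp, Pycard and Casp1 of 10 at 8 h (5.18%). The median log2 ratio of the members was -0.86, -0.36 and -1.04 in turn, beside -0.06, 0.03 and 0.21 for all genes. TMM scaling moved the median of all genes at 8 h to 0.00 and the 8 h count from 5 to 6 by adding Casp4, at 0.476 in place of 0.548. Gsdmd in untreated cells lay just above the limit, at 0.501, as did Il18bp at 8 h with thinned cells, also at 0.501.

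**Figure D3:**
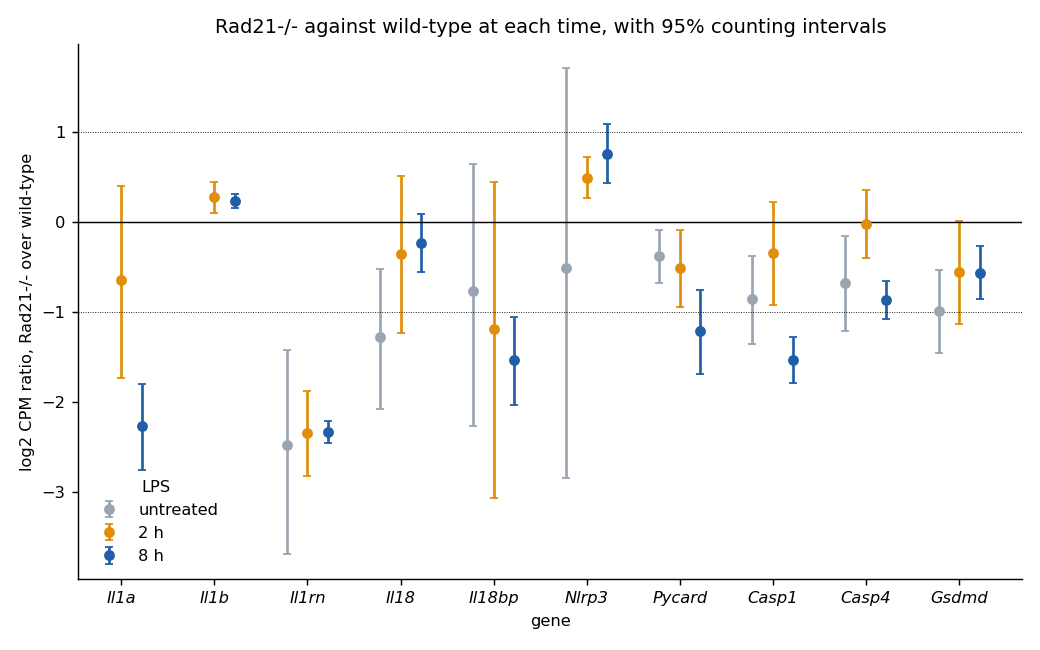
Rad21-/- over wild-type CPM ratio of each gene (y axis, log2; dotted lines mark 2-fold) in untreated cells (grey), at 2 h (orange) and at 8 h of LPS (blue), with 95% counting intervals. Il1rn lay between -2.48 and -2.33 at all 3 times and Il1b at 0.27 and 0.23, and no ratio is drawn where both samples held 3 UMIs or fewer.

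Wells of both genotypes were processed together within pools, which allowed the genotypes to be set against each other under the same library preparation. In pools with at least 10 cells of each genotype, Il1rn was lower in Rad21-/- cells in 8 of 8 untreated pools, 4 of 4 at 2 h and 6 of 6 at 8 h. Its levels per pool did not overlap after LPS: 174 to 227 CPM against 14.4 to 55.1 CPM at 2 h, and 1605 to 2383 CPM against 260 to 741 CPM at 8 h. Il1a at 8 h was lower in 6 of 6 pools, with wild-type pools at 65.2 to 247 CPM and Rad21-/- pools at 0 to 43.2 CPM. Casp1 at 8 h was also lower in 6 of 6, with 161.01 to 393 CPM against 47.5 to 146 CPM. Il18bp, Pycard, Casp4 and Gsdmd were lower in 6 of 6 pools at 8 h too, but with overlapping ranges.

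The Il1b and Nlrp3 pools overlapped at both times. At 2 h 3 of 4 pools had more Il1b in their Rad21-/- cells, as had 4 of 6 at 8 h, and for Nlrp3 these counts were 4 of 4 and 5 of 6. In untreated cells Il18 was lower in 8 of 8 pools and Gsdmd in 7 of 8, with overlapping ranges. Pools are parts of the same samples and not biological replicates.

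**Figure D4:**
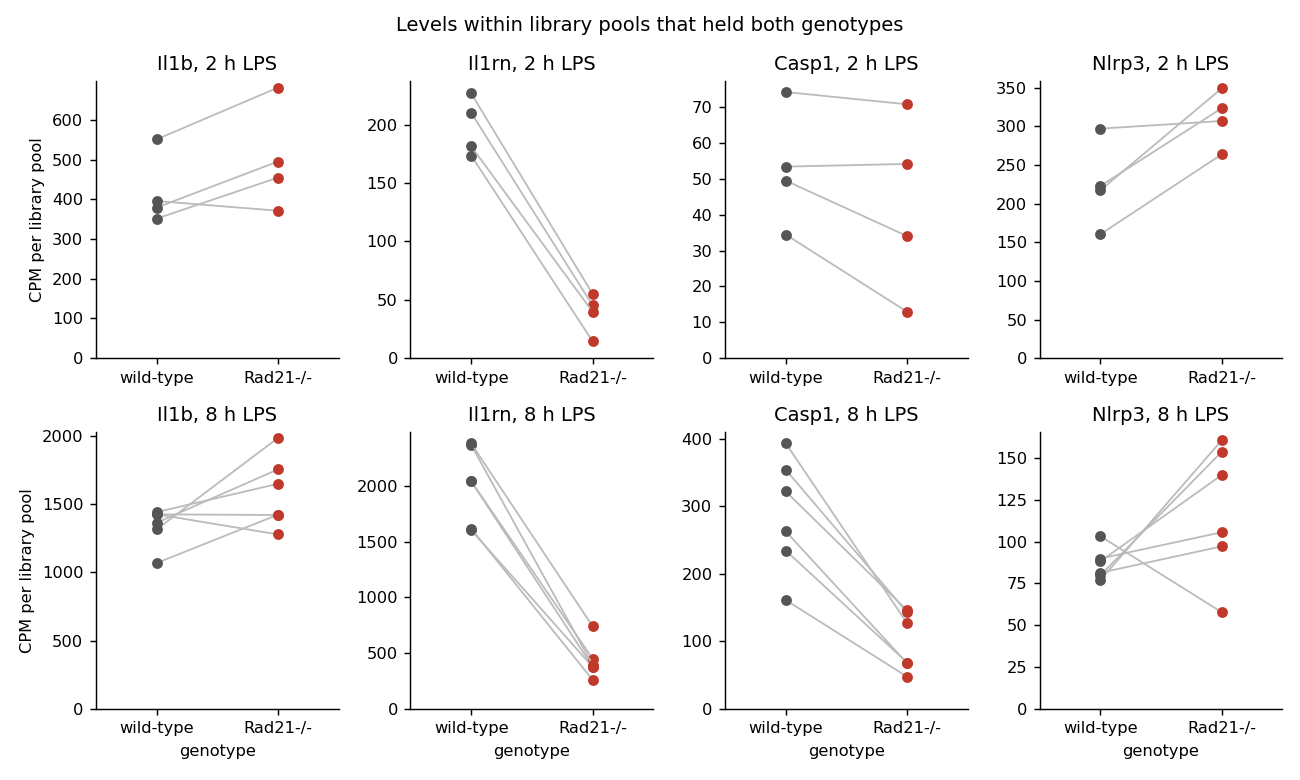
CPM of Il1b, Il1rn, Casp1 and Nlrp3 in each library pool with at least 10 cells of both genotypes, at 2 h (top, 4 pools) and 8 h (bottom, 6 pools). A grey line joins the wild-type and Rad21-/- cells of the same pool; every Il1rn line runs down, as does every Casp1 line at 8 h, while 5 of 6 Nlrp3 lines run up at 8 h.

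The balance of antagonist to cytokine transcripts differed between genotypes. Each captured molecule gives a single 3′ UMI whatever its length, so UMIs of the genes were divided directly, and the change of this ratio between samples was read rather than its absolute size. For each Il1b UMI, wild-type cells held 0.46 Il1rn UMIs (0.39 to 0.54) at 2 h and 1.52 (1.44 to 1.61) at 8 h. Rad21-/- cells held 0.08 (0.05 to 0.10) and 0.26 (0.24 to 0.28). The ratio was higher at 8 h than at 2 h in both genotypes, and the Rad21-/- ratio at 8 h remained below the wild-type ratio at 2 h. By pool it ranged from 0.38 to 0.60 in wild-type and from 0.03 to 0.11 in Rad21-/- cells at 2 h, and from 1.13 to 2.23 and from 0.18 to 0.52 at 8 h, without overlap between genotypes at either time.

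To compare single cells at equal depth, each cell was thinned to 3800 UMIs, which left 1148 cells, 152 to 224 per sample. In wild-type cells at 8 h Il1b was spread widely, with a median of 3 UMIs, quartiles of 1 and 6 and a highest cell of 31, and the top 10% of cells held 37.8% of its UMIs. Rad21-/- cells had a median of 4, quartiles of 2 and 8, a highest cell of 33, and 34.6% in the top 10%. The variance of Il1b over its mean was 6.36 and 6.28 in wild-type and Rad21-/- cells, at means of 5.01 and 6.39 UMIs. Il1rn was more even in wild-type cells, with a median of 7 UMIs, quartiles of 5 and 11, a variance over mean of 2.62 and 22% in the top 10%. Its Rad21-/- median was 1 and its highest cell 7, a level exceeded by many wild-type cells: 32.1% of them held 10 UMIs or more. For Il1a, found in 26.3% of these wild-type cells, the top 10% of cells held 68.4% of the UMIs, a share that is higher for sparse genes. Its variance over mean was 3.22 beside 6.36 for Il1b, but the means were 0.509 and 5.01 UMIs. Both measures shift with the mean, so these genes were not ranked by unevenness.

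At equal depth 34.4% (27.1 to 42.3) of wild-type cells showed Il1b without Il1rn at 2 h, and 1.34% (0.277 to 3.86) did so at 8 h. The Rad21-/- shares were 49.3% (41.1 to 57.6) and 25.9% (20.0 to 32.5). Cells in which a cytokine transcript was detected without its antagonist were thus rare by 8 h in the wild-type but not in the Rad21-/- sample, though detection depends on depth. Across 224 wild-type cells at 8 h, Il1a and Il1b had a Spearman correlation of 0.35, and Il1b was found in 94.9% of 59 Il1a-positive and 86.7% of 165 Il1a-negative cells. All other pairs of members lay within 0.20 of 0 in the samples where both had at least 50 UMIs, which in counts this sparse is no finding. Transcripts of the whole NLRP3, ASC and caspase-1 set were seen together in 4 of 160 wild-type cells at 2 h and 9 of 224 at 8 h. In Rad21-/- cells they were seen together in 1 of 152 and 1 of 201. These counts were not set against those that the share of each gene alone would give, so they say nothing about joint expression.

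**Figure D5:**
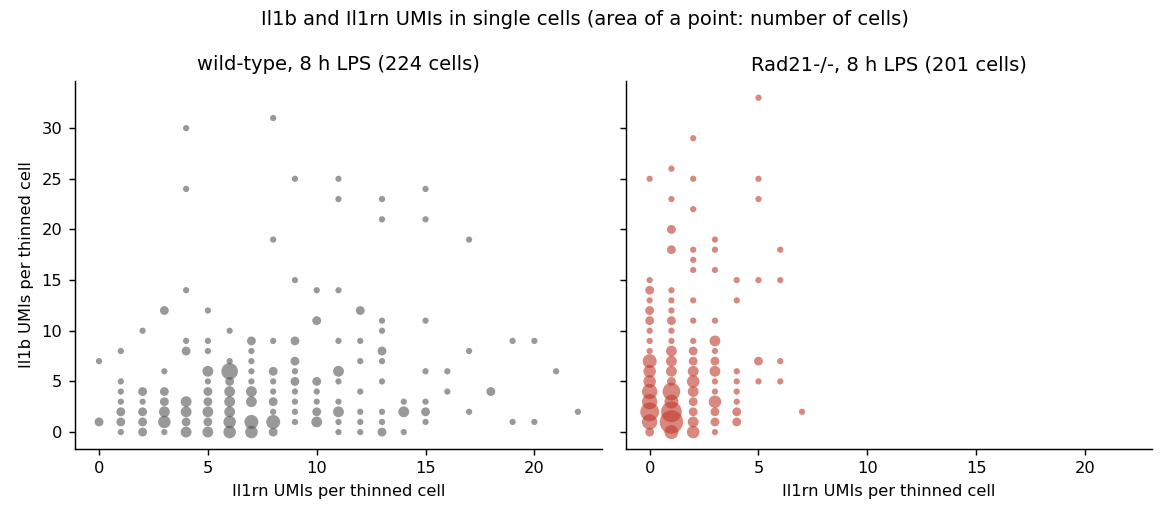
Il1b (y axis) against Il1rn (x axis) UMIs in single cells at 8 h of LPS, each cell thinned to 3800 UMIs, with 224 wild-type cells on the left and 201 Rad21-/- cells on the right; the area of a point is the number of cells. Rad21-/- cells reach 33 Il1b UMIs as wild-type cells reach 31, but no more than 7 Il1rn UMIs against 22.

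Whether members changed through more positive cells or more UMIs per positive cell was read by the same split of the mean. From untreated to 8 h the share part was the larger for 8 of 9 members in wild-type and 9 of 9 in Rad21-/- cells (Il1b has no split because no untreated cell was positive). The exception was wild-type Il1rn (2.84 for the share and 3.19 for the level). Between 2 h and 8 h, when Il1b was already in most cells, its increase lay in the level, with parts of 0.34 and 1.27 (wild-type) or 0.36 and 1.13 (Rad21-/-). Between genotypes at 8 h the share part was the larger for 4 of 10 members, with median parts of -0.31 and -0.51. The larger share parts among the 5 lower members were those of Il1a, at -1.23 beside -1.0, and Il18bp, at -1.31 beside -0.43.

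Other genes of the pathway were read from a fixed list of 62, of which 41 had rows. In wild-type cells 8 of 34 with enough UMIs were higher (4.2% of all genes) and 2 lower (6.41%) at 2 h, and 13 of 37 were higher (6.84%) and 7 lower (19.2%) at 8 h. In Rad21-/- cells 11 of 36 were higher (4.43%) and 3 lower (4.67%) at 2 h, and 11 of 35 higher (7.19%) and 2 lower (7.95%) at 8 h. The counts of lower genes in wild-type cells were thus near the share of all genes. Tnfaip3, which encodes the NF-κB inhibitor A20, was 38.2-fold (23.3 to 67.4) and 73.3-fold (33.3 to 201) the untreated level at 2 h in wild-type and Rad21-/- cells. Gbp2, a guanylate-binding protein of the kind that coats cytosolic bacteria for caspase-11, was 4.33-fold (2.50 to 7.91) and 3.12-fold (1.49 to 7.00) the untreated level at 2 h and 46.0-fold (28.6 to 79.4) and 33.5-fold (18.5 to 67.7) at 8 h. Txnip, a thioredoxin-binding protein, was lower in both, at 0.098 (0.056 to 0.161) and 0.162 (0.113 to 0.227) at 2 h. Nek7, the kinase that NLRP3 needs to assemble, changed by less than 2-fold in all 6 LPS contrasts.

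Among receptor and signalling genes 1 of 9 with enough UMIs differed 2-fold between genotypes at 8 h, Irak1, which was higher in Rad21-/- cells. Of 14 sensor and adaptor genes Naip2, Mefv, Gbp2 and Gbp7 were lower and Nlrp12 and Txnip higher. Both brakes with enough UMIs, Tnfaip3 and Trim30a, were lower. Of all 33 listed genes, 8 were lower (5.18% of all genes) and 3 higher (10.3%), and at 2 h 2 of 33 were lower (6.18%) and 4 higher (4.29%). The 3 higher at 8 h and the 2 lower at 2 h were near the share of all genes. The ratio at 8 h was 0.413 (0.366 to 0.467) for Gbp2 and 0.450 (0.385 to 0.526) for Tnfaip3. Nek7 stood at 1.86-fold (1.43 to 2.43), with Nlrc4 at 1.45-fold (1.13 to 1.88) and Ninj1, which ruptures the membrane of dying cells, at 1.44-fold (1.27 to 1.64). Other ligands of the family, among them Il33 and the IL-36 genes, had no rows.

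The genes whose level over the 6 samples was most like that of a member were found by Pearson's r of log2(CPM + 1) among 10612 genes, as a description. For Il1b these were Ier3 (r = 0.991), Birc3 (0.989) and Nfkbib (0.987). Il1rn was followed most closely by Ktn1 (0.997), Cd274 (0.996) and Rab10 (0.991), Nlrp3 by 4930430E12Rik (0.994), Cxcl1 (0.994) and Icam1 (0.991), and Casp1 by Gm16340 (0.998), Iigp1 (0.995) and Parp12 (0.994). Per member, 1 to 7 genes exceeded 0.99.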

How the data were processed

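The deposited file holds UMI counts per gene and cell, not normalized. Per the study's methods, the authors mapped reads with GEMTools 1.7.0 to GRCm38.p4 (Gencode M8), kept unambiguous reads, collapsed UMIs within a small edit distance and dropped wells with much spike-in, poor mapping or very many reads. The text speaks of a filter on rarely detected genes, but genes found in few cells remain in the table. Cells were assigned to samples and pools by their column names. Wells above 25000 UMIs were left out, UMIs were summed per sample and divided by the total (CPM), and exact Poisson, Clopper-Pearson and conditional binomial intervals at 95% came from scipy 1.17.1, with pandas 2.3.3 and numpy 2.4.6, under Python 3.11.15. No test was run, since each condition is 1 sample. Samples at 0 were set to a floor of 3 UMIs. Scripts were tested on simulated data. No barcode within a pool was shared by wells.

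The named genes are all members, the listed pathway genes with the highest and lowest ratios in each comparison among those with at least 100 UMIs over both samples, and for each member the 3 genes most alike over samples. Listed genes outside this rule were named after their values were seen, to account for short counts. Values of some listed genes are not reported here. Members, lists and processing were chosen with earlier results of these data known. Promoter windows and gene positions came from RefSeq tables of build GRCm38.p6. Cells were thinned without replacement to 3800 UMIs, leaving out shallower cells. The alternatives were all wells, thinned cells, the mean of CPM per cell, TMM-scaled library sizes, other UMI minimums, a 1.5-fold limit, a cell called positive from 2 UMIs, each pool left out in turn and ratios within pools.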

Additional observations from a re-analysis of the deposited data

How the results depend on the processing

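No member ratio past the 2-fold rule changed direction under the alternatives run. Of the 37 ratios outside that rule, 9 crossed 1, some under more than 1 alternative: 3 with thinned cells (among them Il18 in Rad21-/- over wild-type cells, 1.05 at 2 h and 1.01 at 8 h), 1 with all wells, 1 with mean CPM per cell (Il18bp in wild-type cells, 2 h over untreated, 0.865) and 6 with a pool left out. TMM scaling changed 3 of 18 counts of members, none by over 1.5 times. A 1.5-fold limit gave 1 member lower at 2 h and 1 at 8 h against untreated in wild-type cells, 1 lower at 2 h against untreated and 2 lower from 2 h to 8 h in Rad21-/- cells, and, between genotypes, 6 lower untreated, 2 lower at 2 h and 1 higher at 8 h. From 2 h to 8 h in Rad21-/- cells 2 members were lower with thinned cells and with mean CPM per cell. Between untreated genotypes 1 was lower with thinned cells and 0 with at least 100 UMIs. Between genotypes at 2 h 3 were lower with all wells and 2 with no minimum of UMIs. The cause was not tested, except that fewer genes pass a higher minimum and a smaller fold admits more. Of 88 ratios, 3 left their counting interval with TMM scaling, 3 with all wells and 3 with mean CPM per cell, as did 9 of 87 with thinned cells, 21 of 1184 with a pool left out and 0 of 21 within pools. Thinning moved 40 of 60 shares beyond their intervals, so shares are tied to depth. No paired test between samples was possible because each condition is 1 sample. The ratios within pools paired the genotypes by library preparation only.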
